A study of Scomber scombrus with 32 samples.

Results

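Mack1, a continuous cell line grown from mackerel skeletal muscle, was compared between lipid loading and proliferation at the stage labelled p27, before the line was immortalized. The comparison holds 6 of the 32 RNA libraries of the series, 3 of lipid loading and 3 of proliferation, chosen by the group named in the sample labels and not by any measured value. Of the 24189 genes in the count table, 15683 passed the low-count filter and were tested. The other libraries of Mack1 are the p27 states serum reduction and serum starvation and all 4 states at p77, after immortalization, with 3 libraries in each group, and 8 further libraries come from a line named Mack2, which is not analysed here.

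Proliferating p27 cells were grown in medium with 20% serum and FGF2 at 1 ng/mL, which favours division of muscle precursors over their differentiation. Lipid loading used the same serum and FGF2 and added 4 things to confluent cultures: insulin at 10 ug/mL, IBMX at 0.5 mM, dexamethasone at 0.25 uM and a lipid mixture at 10 uL/mL. IBMX blocks the phosphodiesterases that break down cyclic AMP, and dexamethasone is a synthetic glucocorticoid. Serum reduction gave confluent cultures medium with 2.5% serum, FGF2 at 0 ng/mL and none of the 4 additions. It therefore differs from lipid loading in serum, FGF2 and the additions together. In serum starvation confluent cultures were left unfed. The labels state confluence for the lipid-loaded cultures and not for the proliferating ones, so an effect of confluence and an effect of the added compounds cannot be told apart in this comparison. Both groups are cultures of 1 line, labelled as muscle stem cells, and their libraries are called experimental replicates with no statement that they came from separate cultures. The p-values below come from 1 fit of all 24 Mack1 libraries. They therefore reflect only how far libraries scatter within the 8 Mack1 groups, and that scatter may be technical.

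Cells that take up fat first free fatty acids from circulating lipoproteins with lipoprotein lipase, an enzyme that secreted inhibitors hold back. They then activate the fatty acids with coenzyme A, join them to glycerol and store the triglyceride in droplets coated by perilipins. The mixture of insulin, a cyclic AMP raising agent and a glucocorticoid is the classic cocktail for turning mammalian preadipocytes into fat cells, where the glucocorticoid and cyclic AMP signals induce the C/EBP factors and these in turn induce PPAR gamma. Muscle precursors follow another course when they stop dividing: MyoD and myogenin switch on the sarcomere, the calcium release system and the muscle forms of the glycolytic enzymes, and the cells fuse into myotubes.

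Levels are given as CPM, read counts scaled to a fixed total per library, with the mean ± SD of 3 libraries, and are not corrected for gene length, so they are set between samples and not between genes. A change is the log2 fold change of lipid loading over proliferation ± SE from edgeR's quasi-likelihood test, two-sided, with Benjamini-Hochberg adjustment over all genes tested. An adjusted p under 0.05 is called a pass. The 6 libraries held 21.84 to 23.28 M counts each. Between 16722 and 16891 genes had a count in the lipid-loaded libraries and 15293 to 15553 in the proliferating ones. The 10 most abundant genes held 12.19 to 12.62% of the counts in lipid loading and 9.06 to 9.23% in proliferation. The part of these differences in the results was not tested.

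A majority of the genes tested changed: 10156 genes passed, which is 64.8% of those tested, 5385 of them higher in lipid loading (34.3%) and 4771 lower (30.4%). The larger changes were more often increases. At 2-fold or more, 3333 genes were higher (21.3%) and 1905 lower (12.1%), and at 32-fold or more 778 were higher and 61 lower. The median change over all genes tested was 0.08. The share that passed rose with the level, from 43.0% of genes with a mean under 1 CPM to 83.1% of genes at 100 CPM or more. Direction differed with the level too. Under 1 CPM 984 genes were higher and 128 lower, while at 100 CPM or more 427 were higher and 1033 lower. Since the share that passed is high, the counts in gene groups below are read against 34.3% higher and 30.4% lower.

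**Figure D1:**
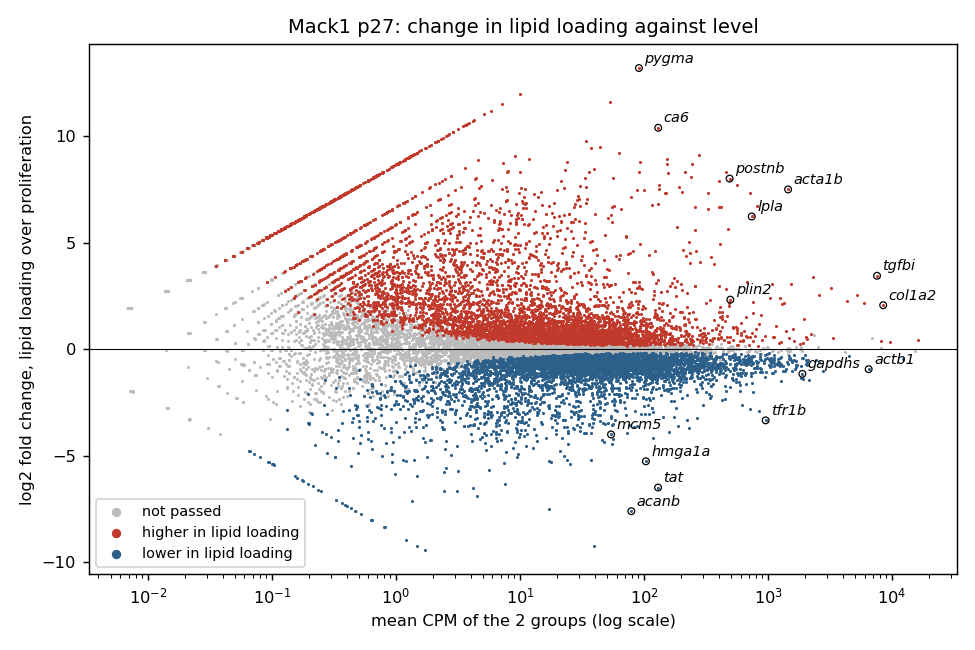
Each point is 1 gene tested, at the mean CPM of the 2 p27 groups (log scale, horizontal) and its log2 fold change in lipid loading over proliferation (vertical), coloured by whether it passed higher, passed lower or did not pass. Genes with few or no counts in proliferation, such as pygma, sit at the top at values that depend on the small count the fit adds, and the matrix genes tgfbi and col1a2 sit far right above 0.

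The machinery that brings lipid into the cell moved in parts. Lipoprotein lipase (lpla, gene 133984377) stood at 15.5, 25.3 and 17.7 CPM in the 3 proliferating libraries and at 1485, 1502 and 1381 CPM in the lipid-loaded ones. The groups were far apart, with a change of lpla of 6.22 ± 0.13 (adjusted p = 1.22e-22). Angptl4, a secreted inhibitor of the lipase and a target of both fatty acids and glucocorticoids in mammals, went from 1.93, 2.27 and 2.04 CPM to 222, 226 and 237 CPM (6.78 ± 0.19, adjusted p = 1.58e-20). So the lipase and this inhibitor rose together, and no lipid-loaded library overlapped a proliferating one for either gene, as held for 70.6% of all genes tested.

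Of 26 genes listed for the lipase and lipid uptake, 19 were tested, and 8 rose and 6 fell (over all genes, 34.3% and 30.4%), with a median of 0.00 beside 0.08 over all genes. The heart-type fatty acid binding protein fabp3, which carries fatty acids through the cytoplasm, reached 2094 ± 113 CPM from 478 ± 30.2 CPM. The very low density lipoprotein receptor vldlr rose from 17.9 ± 1.81 to 74.1 ± 1.43 CPM (2.05 ± 0.12, adjusted p = 5.26e-14). The LDL receptor gene ldlrb went the other way, from 338 ± 21.7 to 150.7 ± 3.09 CPM (-1.16 ± 0.11, adjusted p = 3.77e-10). The fatty acid transport protein slc27a6 (-1.68 ± 0.24), the lysophospholipid carrier mfsd2ab (-1.33 ± 0.10) and the lipase maturation factor lmf1 (-0.62) fell too. The summed level of the list was 1192 to 1317 CPM in proliferation and 4552 to 4863 CPM in lipid loading, and in lipid loading most of it came from lpla and fabp3.

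Storage genes did not move as a block. Of 10 genes of droplet coats and droplet formation, 6 were tested, and 2 rose and 3 fell with a median of -0.32. The droplet coat plin2 stood at 164.0, 167 and 166 CPM in proliferation and at 858, 804 and 818 CPM in lipid loading, while plin3, a coat protein of small new droplets, changed by 0.50. Fitm2, a membrane protein of droplet budding, was lower (-0.89), as were the droplet GTPase rab18a (-0.32) and faf2 (-0.72), which helps extract proteins from droplets and the endoplasmic reticulum.

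Among 19 tested of 23 genes of triglyceride synthesis, 5 rose and 8 fell with a median of -0.20, and only 3 were higher without lipid loading replicate 1. Gpat3, which attaches the first fatty acid to glycerol phosphate, stood at 11.3, 12.8 and 13.7 CPM in proliferation and at 107, 97.5 and 109 CPM in lipid loading (3.05 ± 0.12, adjusted p = 7.36e-18). Its relative gpam was at 0.13, which did not pass. Lpin1a, a phosphatidate phosphatase, was without a count in proliferation and at 2.12 ± 0.765 CPM in lipid loading. Taking 3 counts over the proliferating group as the floor, as for all such genes below, it was at least 48.3-fold higher. The acyl-CoA synthetases moved down, with acsl4a from 114 ± 5.77 to 47.4 ± 1.89 CPM (-1.26 ± 0.08), acsl3a at -1.45 ± 0.14 and acsl3b at -0.80. Agpat4 (-1.84 ± 0.24), an acyltransferase of the next step, and dgat1b (-0.92 ± 0.20), which makes the last bond of triglyceride, were lower as well.

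Of 8 genes of lipid breakdown, 6 were tested, and 3 rose and 1 fell, with a median of 0.44. Hormone-sensitive lipase lipea was the one that fell, from 11.2 ± 2.19 to 6.70 ± 1.07 CPM (-0.74 ± 0.21, adjusted p = 0.00332). A second gene of this lipase, lipeb, rose by 0.42 (adjusted p = 0.0377). It did not pass without lipid loading replicate 2 or 3 (adjusted p = 0.0518 and 0.139) or proliferation replicate 1 or 3 (0.0804 and 0.159). The change of pnpla2, the lipase that starts triglyceride breakdown, was 3.16 with an adjusted p of 0.0087, but 2.57 with an adjusted p of 0.0515 without lipid loading replicate 1.

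Fatty acid synthesis and sterol synthesis differed in their counts. Of 21 tested of 23 genes of fatty acid synthesis and desaturation, 7 rose and 6 fell with a median of 0.20. Fatty acid synthase fasn stood at 230, 291 and 239 CPM in proliferation and 236, 202 and 223.5 CPM in lipid loading, with overlapping groups (-0.20 ± 0.13, adjusted p = 0.197, and 0.0431 in the fit without p77 serum starvation replicate 1). ATP citrate lyase aclya, which supplies cytosolic acetyl-CoA, fell from 123 ± 6.94 to 48.8 ± 2.14 CPM (-1.33 ± 0.10, adjusted p = 1.34e-11). The elongase elovl6 fell from 66.7 ± 1.72 to 23.0 ± 1.48 CPM and the lipogenic transcription factor srebf1 from 134 ± 5.12 to 82.9 ± 4.44 CPM. Stearoyl-CoA desaturase scd rose (0.71 ± 0.11), as did malic enzyme me1 (1.87 ± 0.27) and the acetyl-CoA carboxylase acacb (3.15 ± 0.27), the form that in mammals sits at mitochondria.

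Sterol genes were mostly higher: of 27, all tested, 20 rose and 2 fell, with a median of 1.30. HMG-CoA reductase hmgcra, the rate-limiting enzyme, stood at 23.7, 27.1 and 22.4 CPM in proliferation and at 179, 162 and 168 CPM in lipid loading. Upstream and downstream steps followed, with HMG-CoA synthase hmgcs1 at 1.30 ± 0.11, squalene synthase fdft1 at 2.81 ± 0.24, lanosterol synthase lss at 3.03 ± 0.29 and the last step dhcr7 at 1.21 ± 0.09. Erg28, a scaffold of the demethylation steps, rose from 0.691 ± 0.111 to 21.5 ± 0.76 CPM (4.95 ± 0.25, adjusted p = 1.62e-15). Tm7sf2 and lbr encode proteins that both reduce the same sterol double bond, and they moved in opposite directions. Tm7sf2 went from 1.17 ± 0.233 to 24.7 ± 1.5 CPM (4.39 ± 0.24), and lbr, which also anchors chromatin to the nuclear membrane, from 94.4 ± 2.55 to 8.57 ± 1.26 CPM (-3.46 ± 0.18). The second gene that fell was ldlrb, while srebf2, the transcription factor of this pathway, was at -0.08 and did not pass.

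Of 36 genes of fatty acid oxidation, all tested, 21 rose and 6 fell with a median of 0.37. The muscle form of carnitine palmitoyltransferase cpt1b, the gate of fatty acids into mitochondria, stood at 0.0429, 0.524 and 0.0908 CPM in proliferation and at 14.3, 13.5 and 12.1 CPM in lipid loading (5.89 ± 0.44, adjusted p = 5.73e-12). Its relative cpt1ab rose from 63.7 ± 0.66 to 118 ± 10.4 CPM (0.89 ± 0.08). Both pyruvate dehydrogenase kinases in the list, which shift cells from glucose to fat, were higher. Pdk4 went from 0.613 ± 0.237 to 18.4 ± 3.06 CPM (4.89 ± 0.27), and pdk2a, without a count in proliferation, reached 20.1 ± 1.27 CPM, at least 458-fold higher. The thioesterases acot11a and acot11b (-1.04 and -0.81) and the carnitine acetyltransferases crata and cratb (-0.52 and -0.70) were among the 6 that fell.

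**Figure D2:**
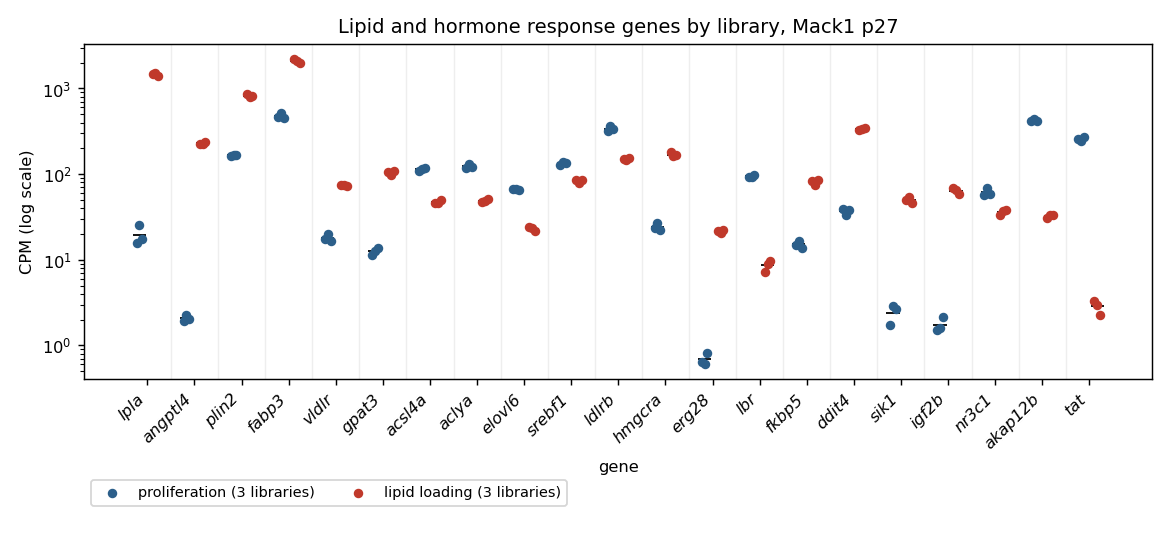
CPM (log scale) of 21 lipid and hormone response genes in each of the 3 proliferating and 3 lipid-loaded p27 libraries, with a bar at each group's mean. The libraries of a group sit close together next to the distance between groups, with lpla near 1456 CPM in lipid loading and tat near 2.85 CPM.

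Glucocorticoid response genes were higher more often than lower. Of 36 tested of 38, 22 rose and 9 fell with a median of 1.08. Fkbp5, a chaperone of the glucocorticoid receptor and a direct target of it in mammals, stood at 14.8, 16.7 and 13.9 CPM in proliferation and at 82.5, 75.5 and 85.3 CPM in lipid loading (2.42 ± 0.11, adjusted p = 3.78e-16). Other targets known from mammals rose with it, and none of their libraries overlapped between the groups, as held for 70.6% of all genes tested. They were the transcriptional regulator tsc22d3 (1.57 ± 0.13), the secreted protein gene crispld2 (2.98 ± 0.10), the metallothionein mt2 (4.59 ± 0.46), the transcription factor klf9 (6.23 ± 0.72) and the growth inhibitor ddit4 (3.18 ± 0.11). The receptor itself, nr3c1, fell from 61.5 ± 6.88 to 36.2 ± 2.17 CPM (-0.76 ± 0.10, adjusted p = 1.77e-07). Tyrosine aminotransferase tat, a glucocorticoid target of the mammalian liver, fell from 257 ± 13.3 to 2.85 ± 0.533 CPM, and pck1, another such target, was at -0.13 and did not pass (adjusted p = 0.523).

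Cyclic AMP response genes also leaned upwards, with 20 higher and 6 lower of 38 tested of 47 and a median of 1.11. Sik1, a kinase induced by cyclic AMP that dampens the response, stood at 1.72, 2.88 and 2.63 CPM in proliferation and at 49.6, 54.3 and 45.8 CPM in lipid loading (4.37 ± 0.29, adjusted p = 3.98e-13). Crema, whose gene makes the repressor ICER in mammals, rose from 4.40 ± 2.02 to 54.0 ± 5.67 CPM (3.62 ± 0.21), and the phosphodiesterase pde4ba from 11.2 ± 1.42 to 39.8 ± 1.94 CPM (1.83 ± 0.14). The immediate early gene nr4a1 went from 0.335 ± 0.391 to 8.69 ± 2.34 CPM, and fosb, another immediate early gene, from 9.39 ± 2.81 down to 1.52 ± 0.337 CPM. Akap12b, which anchors protein kinase A, stood at 414, 445 and 416 CPM in proliferation and at 30.7, 33.3 and 33.7 CPM in lipid loading (-3.71 ± 0.12, adjusted p = 3.05e-19).

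Insulin and IGF signalling genes split, with 20 higher and 14 lower of 41 tested of 46 and a median of 0.40. Igf2b, an insulin-like growth factor, stood at 1.5, 1.61 and 2.13 CPM in proliferation and at 68.3, 66.1 and 58.5 CPM in lipid loading (5.20 ± 0.26, adjusted p = 1.11e-15). The 3 measured genes of proteins that bind IGF2 messenger RNA went the other way. Igf2bp3 fell from 17.1 ± 3.51 to 2.17 ± 0.439 CPM (-2.98 ± 0.22), igf2bp2a from 18.3 ± 2.65 to 8.06 ± 1.66 CPM (-1.18 ± 0.17) and igf2bp1 from 1.23 ± 0.228 to 0.0434 ± 0.0751 CPM. Grb14, an adaptor that blocks the insulin receptor, rose from 0.131 ± 0.227 to 6.32 ± 1.25 CPM (5.53 ± 0.44). The FoxO factors, which insulin keeps out of the nucleus, diverged: foxo1a fell (-1.96 ± 0.13) and foxo3b rose (1.98 ± 0.13).

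Regulators of fat cell identity did not move as a block. Pparg, the master regulator of mammalian fat cells, stood at 1.42, 0.742 and 0.818 CPM in proliferation and at 0.583, 0.709 and 0.954 CPM in lipid loading, with overlapping groups (-0.41 ± 0.46, adjusted p = 0.453). The fat cell binding protein fabp4a overlapped too, at 1.03 ± 0.615 and 0.568 ± 0.376 CPM (adjusted p = 0.215). Cebpa, without a count in proliferation, was at 2.66, 2.00 and 2.17 CPM in lipid loading, at least 51.9-fold higher, and cebpd, an early factor of the cascade, rose from 7.11 ± 1.41 to 35.0 ± 2.76 CPM (2.30 ± 0.19). Neither gene set lipid loading above both other confluent p27 states. Cebpa stood at 1.46 ± 0.381 CPM in serum reduction, which lipid loading did not pass against (0.64, adjusted p = 0.541), and at 0.0549 CPM in serum starvation. Cebpd stood at 6.76 CPM in serum reduction and at 48.9 CPM in serum starvation (lipid loading over starvation -0.48, adjusted p = 0.0155). The adiponectin receptor adipor2 rose to 188 ± 6.63 from 57.7 ± 3.53 CPM, and the preadipocyte factor znf423 to 5.84 ± 0.619 from 1.68 ± 0.621 CPM. In all, 12 of 21 tested of 28 rose and 3 fell, with a median of 0.78, and the 3 that fell were 0 or 1 under 9 other settings. The list median was 0.31 against serum reduction and 0.05 against serum starvation. Plin1 and adipoq were not analysed here.

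Markers of other cell types were counted beside these groups, and in bulk RNA fewer cells of a type and less RNA per cell cannot be told apart. The leukocyte markers ptprc and coro1a had 4 and 0 counts over the proliferating libraries and 0 over the lipid-loaded ones. Over the same libraries the endothelial cdh5 had 5 and 0 counts, the epithelial epcam 4 and 2, and the neuronal elavl3, snap25a and syt1a 0 in both. Of the glia and pigment markers, tyr was at 0 in both, while sox10 had 7 and 11 counts, plp1a 0 and 2, and mpz 0 and 1. The tendon marker tnmd fell from 34.8 ± 1.76 to 0.887 ± 0.21 CPM (-5.29 ± 0.30), pdgfra was at -0.26 ± 0.16 and did not pass, and the smooth muscle actin acta2 rose (1.75 ± 0.19). Of the fuller marker lists, 8 rose and 8 fell of 22 smooth muscle genes tested, 3 and 3 of 11 fibroblast and tendon genes, and 3 and 4 of 13 cartilage and bone genes. Of the 9 endothelial genes tested, 2 rose and 3 fell (22.2% and 33.3%, beside 34.3% and 30.4% over all genes). Sox18 was among those that rose (3.47, adjusted p = 0.0177, and 0.078 without proliferation replicate 2). Those that fell were the receptor kdrl, with 326 counts in proliferation and 6 in lipid loading (-5.75 ± 0.93), the receptor tie1 (-3.00 ± 0.28) and the transcription factor fli1, from 20.4 ± 3.72 to 1.21 ± 0.224 CPM (-4.07 ± 0.27). The summed level of the 22 endothelial genes was 31.6 to 41.7 CPM in proliferation and 6.55 to 8.49 CPM in lipid loading. That of the 18 leukocyte genes was 800 to 849 and 163 to 177 CPM, most of it from the integrin gene itgb2, which fell from 745 ± 29.8 to 147 ± 7.57 CPM. Of the 7 leukocyte genes tested, 1 rose and 2 fell (14.3% and 28.6%), with a median of 0.63. The part of such cells in the results was not tested.

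Genes of the contractile apparatus, markers of the labelled muscle origin, were mostly higher. Of 87 sarcomere genes, 78 were tested, and 69 rose and 8 fell with a median of 4.98, or 4.76 with genes at 0 counts set to their bound. The skeletal-type actin acta1b stood at 13.1, 22.1 and 12.9 CPM in proliferation and at 3292, 2647 and 2714 CPM in lipid loading (7.49 ± 0.30, adjusted p = 1.72e-17). Every lipid-loaded library was far above every proliferating one, and the proliferating replicate 2 was the highest of its group. Creatine kinase ckma, which buffers ATP in muscle, showed the same order within proliferation, at 4.38, 16.8 and 5.95 CPM, against 1635, 1349 and 1295 CPM. Summed over the list, the sarcomere genes held 5102 to 5464 CPM in proliferation and 12463 to 14346 CPM in lipid loading.

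The 8 genes of that list that fell included forms used by the cytoskeleton of most cells. They were tropomyosin tpm4a (-0.90 ± 0.08), the alpha-actinin actn4 (-0.74 ± 0.11), the actin capping genes capza1b (-0.92), capza1a (-0.99) and capzb (-0.67), tropomodulin tmod1 (-1.80), pdlim5b (-0.49) and the chaperone hsp90aa1.2 (-1.12 ± 0.09). At the other end, the troponin T gene tnnt1 and the muscle linker xirp2b had no count in proliferation and were at least 190-fold and 132-fold higher. Mypn, a Z-disc protein gene, had 1 count in 3 proliferating libraries, and its count ratio was 631 (95% counting interval 113 to 24955).

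Calcium release and excitation genes were tested for 29 of 36, and 21 rose and 5 fell with a median of 4.53, or 3.94 with genes at their bound. The 2 genes of trimeric potassium channels of the calcium store moved apart. Tmem38a went from 0.805 ± 0.0989 to 55.0 ± 3.94 CPM (6.08 ± 0.20, adjusted p = 2.31e-19), and tmem38b from 28.6 ± 1.12 to 9.04 ± 1.30 CPM (-1.66 ± 0.22, adjusted p = 2.48e-07). The release channel of skeletal muscle, ryr1b, rose (6.78), and the store calcium sensor stim1a fell (-0.67).

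Of 17 genes of the acetylcholine receptor and the endplate tested of 19, 12 rose and 4 fell with a median of 1.07. Both the fetal subunit chrng (1.23) and the adult subunit chrne (5.57) were higher, along with chrnd (1.07) and chrnb1 (5.62). The clustering protein rapsn (-1.75), acetylcholinesterase ache (-1.52), erbb2 (-0.78) and utrophin utrn (-0.79) were the members that fell.

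Among 50 tested of 57 myogenic regulators, 28 rose and 8 fell with a median of 0.74. Myogenin (myog), which starts terminal differentiation, rose from 1.89 ± 0.237 to 31.8 ± 2.57 CPM (4.07 ± 0.24), while myod1 moved from 32.2 to 44.0 CPM (0.45 ± 0.09). Six4a (3.96), mef2aa (2.03) and the sarcomere methyltransferase smyd1a (4.12) rose. The TEAD cofactor vgll3 (-1.20), mef2d (-1.14), the myostatin antagonist fsta (-0.74) and prdm1b (-1.74) fell. Pax7a, a marker of muscle stem cells, had 18 counts over the proliferating libraries and 40 over the lipid-loaded ones and did not pass (1.08 ± 0.82, adjusted p = 0.257). Myf5, listed beside it as a muscle precursor marker, had 0 and 110 counts over the same libraries. It stood at 1.08 to 2.08 CPM in lipid loading and passed (adjusted p = 4.04e-06). Of 24 tested of 27 genes of myoblast fusion, 11 rose and 7 fell, with cdh15, the cadherin of muscle precursors, at 1.72 and integrin itgb1a at -1.11.

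Glycogen and glycolysis genes gave 34 higher and 13 lower of 52 tested of 58, with a median of 1.97. For several enzymes the list held related genes whose changes differed in direction or size. Glyceraldehyde phosphate dehydrogenase gapdh stood at 0.73, 1.79 and 0.454 CPM in proliferation and at 677, 501 and 477 CPM in lipid loading (9.11 ± 0.30, adjusted p = 2.88e-19). Its relative gapdhs stood at 2626, 2633 and 2567.5 CPM and at 1210.0, 1173 and 1131 CPM (-1.16 ± 0.06, adjusted p = 5.46e-15). The order of the groups was opposite for the pair, with no overlap in either gene, as held for 70.6% of all genes tested.

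Aldolase also had one gene that rose and one that fell, with aldoab from 2.90 ± 2.49 to 919 ± 201 CPM and aldocb from 2118 ± 183 to 1252 ± 48.3 CPM (-0.76 ± 0.07). Enolase eno3 rose from 0.725 ± 0.586 to 307 ± 69.0 CPM, and eno1b fell from 289 ± 13.3 to 103 ± 4.53 CPM (-1.49 ± 0.14). A further enolase gene, eno1a, rose from 1201 ± 16.5 to 1734 ± 53.0 CPM (0.53 ± 0.07, adjusted p = 2.12e-07). The creatine kinase ckba also rose (0.48 ± 0.07), far less than its relative ckmb (7.72 ± 0.31). For phosphoglycerate mutase, pgam2 had 2 counts in proliferation, and its count ratio was 3645 (95% counting interval 1009 to 30103), while pgam1b fell (-0.65 ± 0.10). Pyruvate kinase pkmb reached 486 ± 94.9 from 1.18 ± 1.67 CPM, and pkma was level at 1527 ± 63.5 and 1452 ± 33.1 CPM (-0.07 ± 0.08, adjusted p = 0.445). Hexokinase hk1 (-1.15) and lactate dehydrogenase ldha (-1.01 ± 0.07) fell.

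Outside glycolysis, the pairs tpm2 and tpm4a (7.38 and -0.90), actn3b and actn4 (7.71 and -0.74) and the chaperones hsp90aa1.1 and hsp90aa1.2 (4.65 and -1.12) were split likewise. Hsp90aa1.1 is the muscle form in zebrafish, where it folds myosin. These related genes were chosen after their values were seen, fish duplicates can share reads, and the sources used here do not state how such reads were counted.

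**Figure D3:**
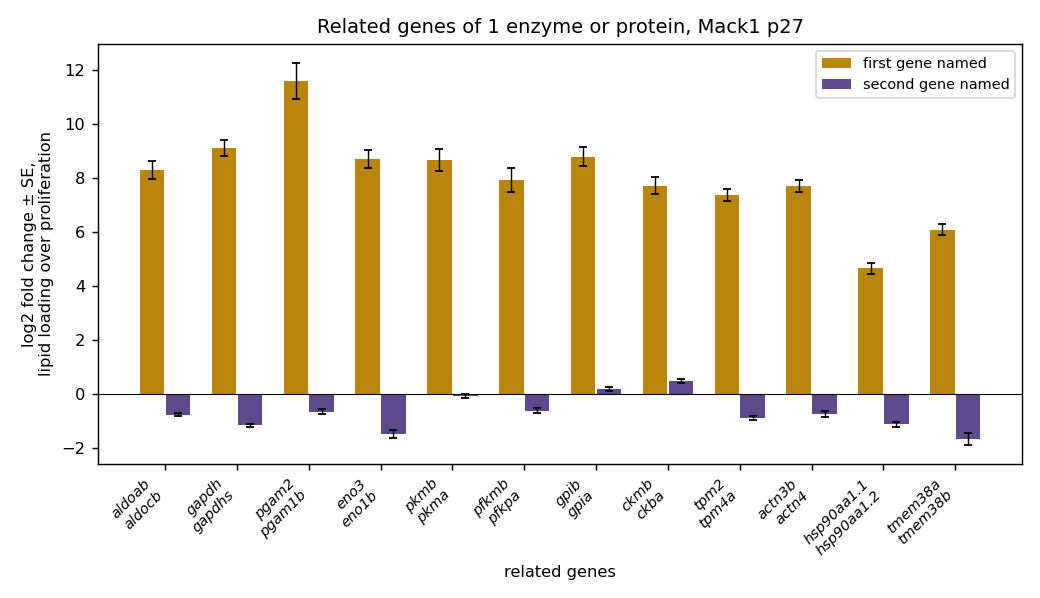
Log2 fold change ± SE in lipid loading over proliferation for 12 pairs of related genes, each pair side by side. The first gene of each pair rose by at least 4.65, whereas the second lay between -1.66 and 0.48, and bars of genes with 3 counts or fewer in proliferation (pgam2 and pfkmb) depend on the small count the fit adds.

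Extracellular matrix genes took a larger share of the scaled read counts in lipid loading. Of 41 collagen genes, 28 were tested, and 24 rose and 1 fell with a median of 2.56. The summed collagen level was 9010, 9504 and 8740.5 CPM in proliferation and 40018, 41290 and 40657 CPM in lipid loading. Collagen I chain col1a2 rose from 3284 ± 120 to 13657 ± 222 CPM (2.06 ± 0.09, adjusted p = 2.64e-17) and the regulator of fibril diameter col5a1 from 1508 ± 138 to 8919 ± 154 CPM (2.56 ± 0.12). The collagen that fell was col17a1b, a transmembrane collagen of epithelial anchoring structures in mammals, from 139 ± 6.33 to 11.9 ± 2.08 CPM (-3.55 ± 0.17).

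Matrix glycoproteins and proteoglycans, 54 tested of 68, gave 39 higher and 8 lower with a median of 2.23, and 5 lower without lipid loading replicate 3 or proliferation replicate 2. Tgfbi, a collagen-binding adhesion protein, stood at 1203, 1387.5 and 1225 CPM in proliferation and at 13390.0, 14294 and 13820 CPM in lipid loading (3.44 ± 0.13, adjusted p = 3.77e-18). Fibronectin fn1a rose from 401 ± 59.5 to 4192 ± 179 CPM, the small leucine-rich proteoglycan ogna from 20.7 ± 2.57 to 506 ± 59.9 CPM, and the basement membrane linker nid2a from 2.36 ± 1.11 to 95.2 ± 3.21 CPM. Emilin1a, an elastic fibre protein, had no count in proliferation and was at least 164-fold higher. Against these, the cartilage-type proteoglycan acanb (-7.60 ± 0.29), the proteoglycan bgnb (-3.56 ± 0.25), the fibulin fbln1 (-1.61) and the thrombospondin thbs1b (-2.85 ± 0.17) fell.

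Genes that process and remodel matrix, 35 tested of 41, gave 24 higher and 7 lower with a median of 1.52. The gelatinase mmp2 rose from 334 ± 6.12 to 2754 ± 98.4 CPM (3.04 ± 0.10), the protease adamts15a from 31.2 ± 3.03 to 533 ± 13.8 CPM (4.10 ± 0.11) and the collagen crosslinker loxl2b from 5.83 ± 0.707 to 180.6 ± 13.3 CPM (4.95 ± 0.19). The metalloprotease inhibitor timp2b fell from 548 ± 22.4 to 178 ± 4.45 CPM (-1.62 ± 0.08). The collagen chaperone serpinh1b stood high in both groups, at 13841 ± 872 and 18464 ± 458 CPM (0.42 ± 0.08, adjusted p = 3.18e-05).

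Genes of cell division fell. Of 75 tested of 77 cell cycle and mitosis genes, 66 fell and 2 rose with a median of -2.80, and of the 53 DNA replication genes, all 53 tested fell, with a median of -2.65. The helicase subunit mcm5 stood at 111, 90.1 and 105.1 CPM in proliferation and at 5.87, 5.38 and 7.89 CPM in lipid loading (-4.00 ± 0.17, adjusted p = 5.08e-17). Thymidylate synthase tyms fell from 69.9 ± 11.6 to 5.55 ± 0.511 CPM and the maintenance DNA methyltransferase dnmt1 from 68.4 ± 3.72 to 7.25 ± 1.43 CPM. Summed over each list, cell cycle genes held 4569.5 to 4819 CPM in proliferation and 1611 to 1797 CPM in lipid loading, and replication genes 2264 to 2559.5 and 371 to 475 CPM.

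Cyclin D1 (ccnd1), which links growth factors to the start of the cycle, went against its list, from 15.1 ± 1.88 to 73.0 ± 4.84 CPM (2.27 ± 0.17, adjusted p = 6.99e-12). The other gene that passed upwards, cdk6 (0.32), lost that call under 8 other settings. Arrest genes did not lean upwards, with 6 higher and 10 lower of 23 tested of 24. The cyclin kinase inhibitor cdkn1a was at -0.04 (adjusted p = 0.732), the retinoblastoma relative rbl2 rose (2.04 ± 0.23) and rbl1 fell (-1.73 ± 0.17), and the p53 ligase mdm2 rose (1.39 ± 0.11).

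Housekeeping sets were mostly lower, by smaller amounts. Of 73 genes of cytosolic ribosomal proteins 66 fell with a median of -0.54, and their summed level was 69614 to 79305 CPM in proliferation and 49703 to 52710 CPM in lipid loading. Of 41 respiratory chain genes 33 fell with a median of -0.65. In the endoplasmic reticulum folding list 18 of 31 fell and 3 rose, with a median of -0.35. Its chaperone hspa5 fell from 1843 ± 43.4 to 918 ± 66.6 CPM (-1.01 ± 0.08) and disulfide isomerase p4hb, also a subunit of collagen hydroxylase, from 2590 ± 81.6 to 1530.5 ± 47.5 CPM (-0.76 ± 0.07). The degradation gene herpud1 rose (1.26 ± 0.11). Of 24 heat shock genes 13 fell and 7 rose, with the mitochondrial chaperonin hspd1 at -0.89 ± 0.08 and hspa1b at 5.27 ± 0.27.

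Amino acid breakdown was mostly lower, with 19 lower and 6 higher of 34 tested of 41 and a median of -0.63. Tyrosine is degraded in turn by the products of tat, hpda, hgd, gstz1 and fah. All but gstz1 fell, and gstz1 was at 0.38 and did not pass. Fumarylacetoacetase fah stood at 72.8, 65.8 and 72.0 CPM in proliferation and at 3.99, 5.38 and 4.25 CPM in lipid loading (-3.95 ± 0.15, adjusted p = 4.91e-18), hpda was at -2.39 ± 0.61 and hgd at -5.73 ± 0.47. Alanine aminotransferase gpt fell from 72.5 ± 3.18 to 1.97 ± 0.789 CPM (-5.20 ± 0.21), and ttc36, which in mice protects the enzyme encoded by Hpd, from 49.8 ± 6.07 to 1.18 ± 0.089 CPM. The glycine decarboxylase gldc (4.54 ± 0.50) and the pterin recycling enzyme pcbd1 (2.67 ± 0.24) rose.

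**Figure D4:**
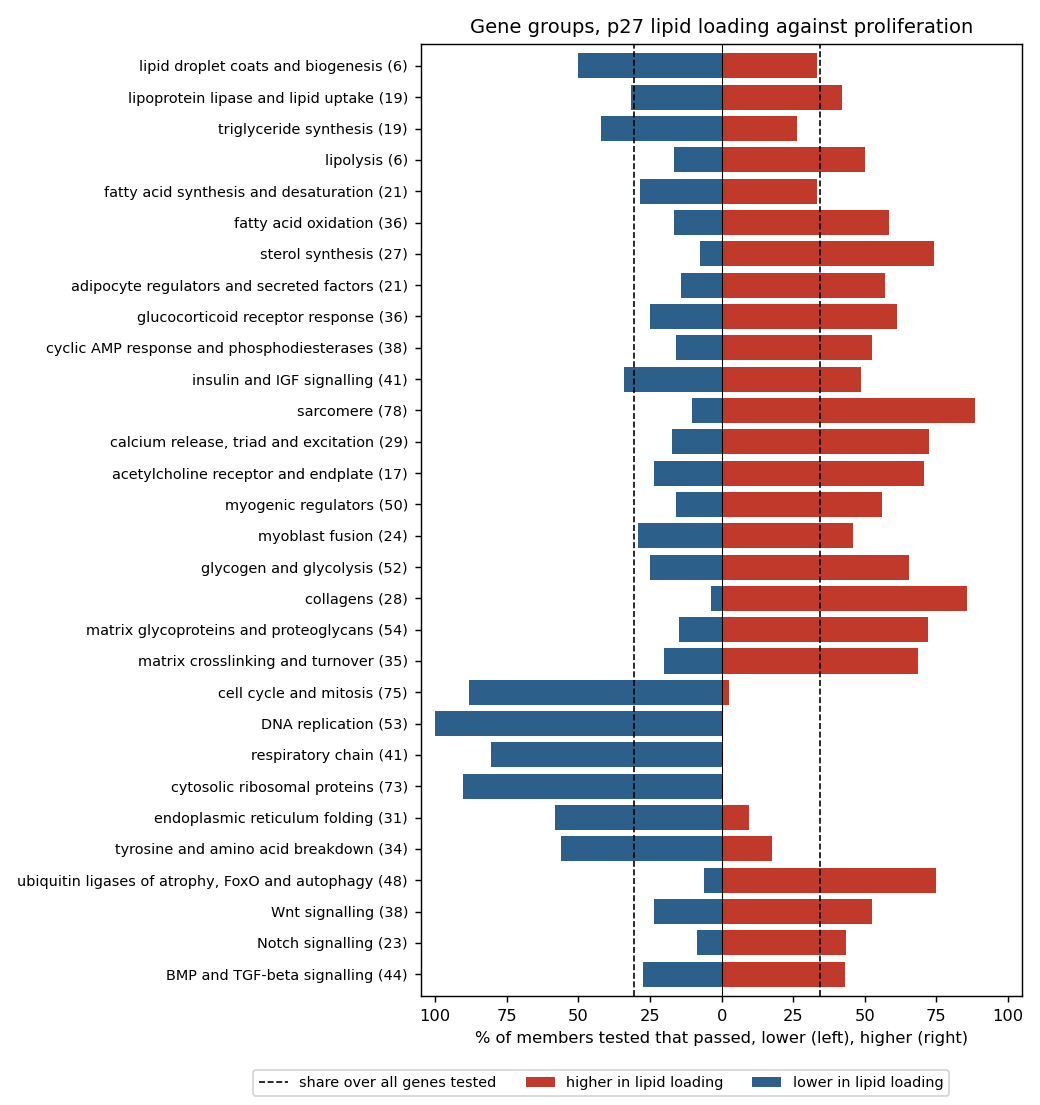
Share of the tested members of 30 gene lists that passed lower (left) or higher (right) in lipid loading than in proliferation, with the number tested in brackets and dashed lines at the shares over all genes tested, 34.3% higher and 30.4% lower. Sarcomere and collagen bars reach farthest right, and DNA replication, ribosomal protein and cell cycle bars farthest left.

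Among signalling genes, Wnt components gave 20 higher and 9 lower of 38 tested of 55, with a median of 0.55. The ligands exchanged. Wnt1 stood at 78.4, 89.8 and 82.2 CPM in proliferation and at 14.1, 15.6 and 12.7 CPM in lipid loading (-2.56 ± 0.18, adjusted p = 1e-12), and wnt10b, which holds back fat cell formation in mammals, fell from 64.6 ± 1.65 to 13.2 ± 0.603 CPM (-2.29 ± 0.14). Wnt6b fell to 1 count over the 3 lipid-loaded libraries, a count ratio of 189.5 (95% counting interval 33.6 to 7527). Wnt5a (4.44 ± 0.82) and wnt9a (4.85 ± 0.90) rose from under 1 CPM. The receptor ror1, which binds Wnt5a in mammals, rose from 0.326 ± 0.209 to 37.2 ± 1.21 CPM (6.83 ± 0.30), and the secreted antagonist frzb from 42.6 ± 6.37 to 354 ± 15.0 CPM (3.06 ± 0.13).

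Notch components gave 10 higher and 2 lower of 23 tested of 25, with a median of 0.24, and 4 lower in a fit of the compared groups alone or without p77 serum starvation replicate 1. The ligand jag1b fell from 249 ± 17.3 to 64.3 ± 8.47 CPM (-1.95 ± 0.14), whereas the ligand dll4 went from 1 count to 2.12 ± 0.535 CPM. The sugar transferase lfng, which tunes the receptor, rose from 7.75 ± 1.74 to 66.0 ± 2.57 CPM (3.09 ± 0.30), and the target hey1 from 15.4 ± 1.23 to 63.1 ± 7.64 CPM (2.04 ± 0.15).

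BMP and TGF-beta components gave 19 higher and 12 lower of 44 tested of 54, with a median of 0.16. The target id3 (3.83 ± 0.29), the pseudoreceptor bambia (3.06 ± 0.19) and the ligand tgfb2 (3.45 ± 0.30) rose. The ligand bmp8a (-3.73 ± 0.30), the activin-binding protein fstl3 (-3.92 ± 0.20) and id4 (-3.19) fell. Among FGF components, 7 rose and 9 fell of 21 tested of 39. Fgfr4, a receptor of muscle precursors, fell from 66.5 ± 2.55 to 16.3 ± 0.476 CPM (-2.03 ± 0.17), in media that held FGF2 at the same dose.

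Genes of protein and organelle turnover leaned upwards: 36 of 48 genes of the atrophy ubiquitin ligases, FoxO and autophagy rose and 3 fell, with a median of 0.74. The muscle ubiquitin ligase fbxo32 stood at 15.1, 18.9 and 16.3 CPM in proliferation and at 68.9, 70.0 and 68.1 CPM in lipid loading (2.04 ± 0.10, adjusted p = 3.86e-16). The autophagy kinase ulk2 (1.65 ± 0.09), the cargo receptor nbr1a (2.12 ± 0.11) and the lysosomal protease ctsba (1.52 ± 0.08) rose as well. Of 25 tested clock genes of 26, 12 rose and 3 fell, and of 24 tested interferon and inflammation genes of 31, 15 rose and 2 fell, both with a median of 0.47. Prostaglandin synthase ptgs2b (-1.57 ± 0.24) and the cytokine il11a (-1.30 ± 0.27) were the 2 that fell, and the sensor of viral RNA ifih1 rose (1.17 ± 0.14).

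The 12 symbols with the highest log2 changes were drawn from non-overlapping genes that reached 5 CPM, and several had no count in proliferation. Among these were the potassium channel subunit kcne4 (at least 263-fold higher) and the creatine synthesis enzyme gatm (at least 195-fold). Others were the AMP deaminase ampd3b (at least 325-fold), the glycogen-binding stbd1 (at least 235-fold) and emilin1a, given above. The secreted carbonic anhydrase ca6 stood at 0.172, 0.393 and 0 CPM in proliferation and at 266, 270 and 244 CPM in lipid loading (10.38 ± 0.33, adjusted p = 1.39e-19). Glycogen phosphorylase pygma had 1 count in proliferation and 182 ± 34.8 CPM in lipid loading, a count ratio of 12425 (95% counting interval 2230 to 490808).

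At the low end stood hmga1a, an architectural chromatin protein of dividing cells, which went from 221, 165 and 220 CPM to 5.83, 4.59 and 5.38 CPM (-5.26 ± 0.21, adjusted p = 9.48e-18). Hyaluronan synthase has1 fell from 44.1 ± 4.80 to 1.37 ± 0.814 CPM (-5.00 ± 0.32), and the lysophosphatidic acid receptor lpar2b from 15.0 ± 1.86 to 0.182 ± 0.0945 CPM (-6.32 ± 0.36). By CPM lost, the transferrin receptor tfr1b, which brings in iron, stood at 1674, 1864 and 1680 CPM in proliferation and at 179, 171.5 and 165 CPM in lipid loading (-3.34 ± 0.08). The cytoplasmic actin actb1 fell from 8505 ± 200.4 to 4428 ± 259 CPM (-0.94 ± 0.10), and tubulin tubb2b from 3122 ± 151 to 1126 ± 38.6 CPM (-1.47 ± 0.13).

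Genes with a symbol were higher in 33.0% of cases and lower in 33.8%, while genes with a locus number alone were higher in 37.5% and lower in 22.6%. The groups above are built from symbols only, so 4685 tested genes with a locus number alone stand in none of them.

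Against the other confluent p27 states, lipid loading differed in 8645 genes from serum reduction (27.5% of the genes tested higher, 27.7% lower) and in 9603 from serum starvation (30.1% higher, 31.1% lower). These comparisons share the lipid-loaded libraries with the one above, so their values are set side by side. The sarcomere genes, 69 of 78 higher than in proliferation, were lower in lipid loading for 57 genes against serum reduction and for 50 against serum starvation, with medians of -2.00 and -1.45. Acta1b stood at 13.1 to 22.1 CPM in proliferation, 2884 in lipid loading, 11355 ± 1846 in serum reduction and 10609 ± 314 in serum starvation. Myog followed at 1.89, 31.8, 205 ± 5.70 and 413 ± 4.65 CPM, so lipid loading lay between proliferation and the other 2 states for both genes.

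Collagens kept a positive median against serum reduction (0.40) and serum starvation (1.82), with 13 and 20 of 28 higher. Tgfbi was higher by 3.14 ± 0.13 and 5.10 ± 0.14 against these states, and fn1a by 2.45 ± 0.14 and 4.77 ± 0.15. The basement membrane collagen col4a1 did the reverse, at 1.00 CPM in lipid loading, 35.7 ± 9.82 in serum reduction and 139 ± 16.6 in serum starvation (-5.15 ± 0.33 and -7.11 ± 0.33). Of 27 sterol genes 20 and 14 were higher, with medians of 1.06 and 0.55, but hmgcra was at 147 CPM in serum starvation against 169 ± 8.70 CPM in lipid loading and did not pass there (0.21 ± 0.11, adjusted p = 0.0935).

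Several lipid and hormone genes were higher in lipid loading than in all 3 other p27 states, as were 1813 genes in all (11.6% of those tested). Ca6 stood at 3.32 ± 0.70 CPM in serum reduction and 0.55 ± 0.246 CPM in serum starvation (6.29 ± 0.23 and 8.91 ± 0.29). Plin2 was higher by 2.73 ± 0.13 and 3.79 ± 0.14, fkbp5 by 2.64 ± 0.11 and 2.80 ± 0.12, and sik1 by 3.59 ± 0.26 and 2.58 ± 0.25. Lpla stood at 470 ± 40.7 and 266 ± 15.2 CPM, so the lipase was above proliferation in every confluent state, and lipid loading exceeded these by 1.63 ± 0.11 and 2.45 ± 0.11. Other genes that rose against proliferation did not separate lipid loading from serum reduction: vldlr was at 0.13 ± 0.11 (adjusted p = 0.343), nr4a1 at -0.19 ± 0.32 (adjusted p = 0.645) and pdk4 at 0.12 ± 0.19 (adjusted p = 0.615). As a list, cyclic AMP response genes had 12 of 38 higher and 11 lower against serum reduction, with a median of -0.07. Against serum starvation 12 were higher and 14 lower, with a median of -0.18. Of 36 glucocorticoid response genes, 19 were higher and 13 lower against serum reduction (median 0.39), and 18 and 11 against serum starvation (median 0.07). Fatty acid oxidation genes were higher for 6 of 36 and lower for 14 against serum reduction, and 14 and 10 against serum starvation. For fatty acid synthesis and desaturation, 4 of 21 were higher and 12 lower, and 7 and 9. For triglyceride synthesis these counts were 3 and 8 of 19, and 5 and 5. For the lipase and lipid uptake they were 9 and 4 of 19, and 12 and 3. Over all genes the shares were 27.5% and 27.7%, and 30.1% and 31.1%.

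Cell cycle genes had a median of -0.05 against serum reduction, with 15 of 75 higher and 18 lower, and -0.98 against serum starvation, with 5 higher and 46 lower. Replication genes had a median of 0.33 against serum reduction, with 15 of 53 higher, a share near that over all genes, and 3 lower, and -0.72 against serum starvation, with 34 lower. Mcm5 stood at 3.58 ± 1.08 CPM in serum reduction, 6.38 in lipid loading, 15.1 ± 1.29 in serum starvation and 102 in proliferation. Respiratory chain genes were lower than in either state (37 and 35 of 41), and heat shock genes too (20 and 16 of 24). Endoplasmic reticulum folding genes, 18 of 31 lower than in proliferation, were higher for 21 against serum reduction and 25 against serum starvation. BMP and TGF-beta genes were higher for 30 and 27 of 44, with medians of 1.16 and 1.14.

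**Figure D5:**
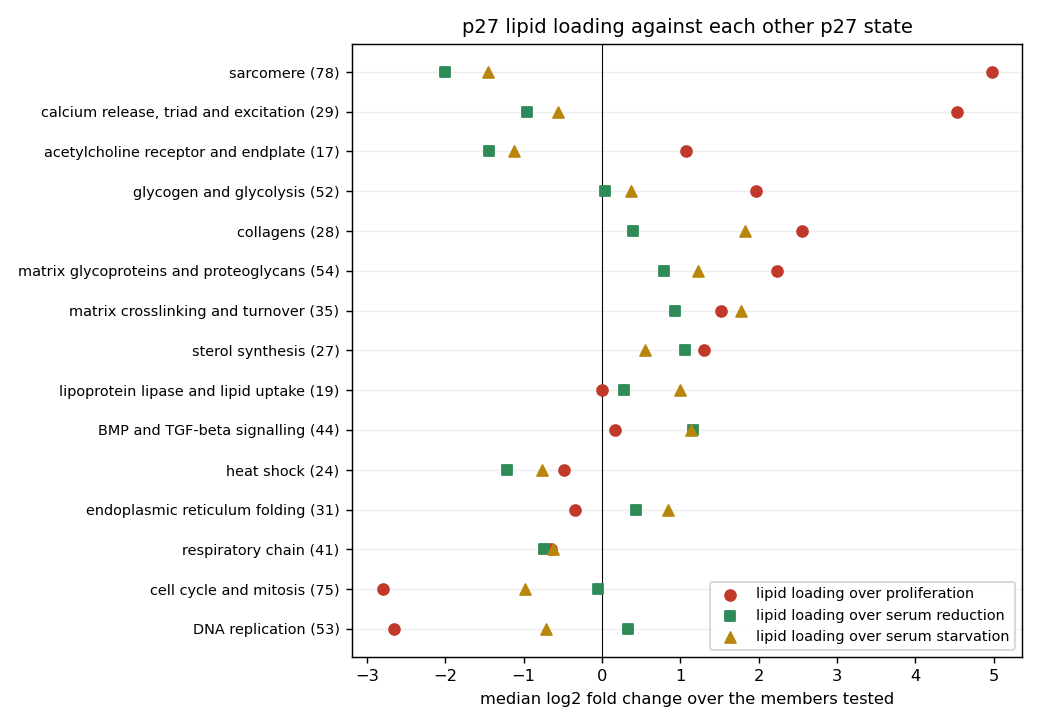
Median log2 fold change of 15 gene lists in p27 lipid loading over each of the 3 other p27 states (circles over proliferation, squares over serum reduction, triangles over serum starvation), with the number of genes tested in brackets. The sarcomere median is 4.98 over proliferation but -2.00 and -1.45 over the other states, whereas the collagen median is above 0 over all 3.

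At p77, in 6 libraries that share none with the p27 comparison, 35.2% of the genes tested were higher in lipid loading and 30.6% lower. Of the genes higher at p27, 79.4% were higher at p77, which is 77.6% of those higher at p77. Of the genes lower at p27, 78.3% were lower at p77, which is 77.9% of those lower there. Across genes, which are not independent replicates, the log2 fold changes of the 2 stages correlated with r = 0.827. Only 121 and 126 genes passed in opposite directions.

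The response itself differed between stages for 23.6% of the genes tested, by a test of the difference: 2154 were more positive at p77 (13.7%) and 1542 less (9.83%). At a difference of 2-fold or more these shares were 6.31% and 3.7%. Sarcomere genes rose more at p77 for 49 of 78 and less for 2, with acta1b from 3.22 to 8725 CPM (difference 3.88 ± 0.38, adjusted p = 1e-08). Cell division genes fell less at p77, with 41 of 75 cell cycle genes and 32 of 53 replication genes more positive, and mcm5 at 119 and 21.2 CPM (difference 1.51 ± 0.22). BMP and TGF-beta genes were less positive at p77 for 23 of 44 and more for 4.

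Lipid genes differed among themselves. Of 36 genes of fatty acid oxidation, 16 were more positive at p77 and 1 less, with acaa2, the last enzyme of the mitochondrial spiral, from 35.3 to 118 CPM (difference 0.66 ± 0.11, adjusted p = 5.28e-05). The carboxylase acacb went from 0.48 to 20.7 CPM, a larger rise than at p27 (difference 2.25 ± 0.44, adjusted p = 0.000313). Lpla started from 228 CPM in p77 proliferation, against 19.5 CPM at p27, and ended at 1226 CPM, a smaller rise (difference -3.79 ± 0.16, adjusted p = 8.95e-16). Angptl4 did likewise, from 10.5 to 228 CPM (difference -2.34 ± 0.24). For plin2, from 94.4 to 421 CPM, the difference was -0.16 ± 0.17 and did not pass (adjusted p = 0.575). Igf2b went from 1.65 to 64.3 CPM, with a difference of 0.07 ± 0.37 (adjusted p = 0.94).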

How the data were processed

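Poly(A) RNA was sequenced as 150 nt read pairs from libraries that do not keep the strand, per the labels. The authors deposited whole-number counts per gene and, beside them, a normalized signal, which equals those counts divided by 1 factor per library. FastQC, STAR, Salmon 1.10.1 and DESeq2 are named in the submitters' processing notes, and the genome build, annotation and treatment of multimapping reads are not stated in these sources. Without strand, reads of overlapping or antisense genes cannot be told apart, and duplicated fish genes can share reads. Symbols come from the RefSeq gene table of fScoSco1.1, which holds all 24189 gene IDs and gives 14498 of them a symbol. No coordinates, promoters or protein sequences were used.

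The counts of the 24 Mack1 libraries were filtered by edgeR's filterByExpr, TMM-scaled and fitted with group means by edgeR's quasi-likelihood model, with a common biological coefficient of variation of 0.137, in R 4.3.3 with edgeR 4.0.16, limma 3.58.1 and DESeq2 1.42.0. Tables and plots used Python 3.11.15, pandas 2.3.3, SciPy 1.17.1 and matplotlib 3.10.9. The 5 contrasts were p27 lipid loading against each other p27 state, the p77 response, and the p77 response minus the p27 response, each two-sided with Benjamini-Hochberg adjustment over 15683 genes. A gene with no count in one group is given as a bound against 3 counts over that group, and with 1 to 3 counts as a count ratio with a 95% exact interval. These cover counting error only.

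Named genes were, per list, up to 6 members with the smallest p and up to 4 that passed against the majority, the 12 highest and 12 lowest symbols with at least 5 CPM and no overlap, the 10 that gained and the 10 that lost most CPM, the 8 highest and lowest of each other contrast, and a short set of markers. Clone-type symbols were left out. Related enzyme genes, some hormone targets and some signals were added after their values were seen, and tmem38a and tmem38b were assigned to the calcium list after their values were seen. The gene lists and the comparison were chosen with earlier results of these data known. Alternatives were DESeq2, RLE size factors, testing without the filter, testing genes that averaged 1 CPM or more, limma-trend on the authors' normalized signal (log2, pseudocount 1), replicate number as a block, the compared groups alone, the fit without p77 serum starvation replicate 1, and each compared library left out. On simulated counts for the main comparison, edgeR called 79.6% of 98 genes changed 2-fold, 83% of 100 changed 4-fold and 8 of 15064 unchanged ones. The simulation changed only 200 genes, so it does not test scaling or false calls where as many genes change as here. All Mack1 libraries carry 1 batch label. Replicates of a group differed by more than sampling noise, with chi-square per degree of freedom from 5.76 to 15.45.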

Additional observations from a re-analysis of the deposited data

Results flagged for a closer look

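A test of the difference between stages set 2154 genes apart as more positive at p77 and 1542 as less, with edgeR's quasi-likelihood test. The named genes below all passed it. Values are the p77 response minus the p27 response on the log2 scale, and where proliferation had no count at a stage the value depends on the small count the fit adds.

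Muscle genes stood out on the positive side. Nrap, a sarcomere assembly protein, went from 0.907 to 25.9 CPM at p27 and from 0 to 49.6 CPM at p77, a difference of 8.45. The junction protein jph1a differed by 8.81, the acetylcholine receptor subunit chrnb1 by 7.78, and the myogenic factors myog by 4.82 and myod1 by 0.87. Myog stood at 0.165 CPM in p77 proliferation and at 79.6 CPM in p77 lipid loading. The BMP receptor gene bmpr1bb differed by 8.61, the kinase map3k15 by 7.94, the protease mmp15b by 7.63, tmem255a by 7.47 and kif26ba by 7.38, and all 5 were at 0 in p77 proliferation.

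On the negative side, the elastic fibre gene emilin1a differed by -8.51 and the BMP antagonist nog1 by -8.21. Nog1 rose from 0.0582 to 8.5 CPM at p27 and stood at 0.576 and 0.266 CPM at p77. The endothelin receptor ednrba differed by -6.81, the Wnt antagonist sost by -6.36, ndnf by -6.26, hopx by -5.71, the Notch target heyl by -5.42 and the protocadherin pcdh10b by -4.90. Ednrba stood at 0.0749 and 0.225 CPM at p27, where its change did not pass (adjusted p = 0.253). At p77 it fell from 6.37 to 0.167 CPM. Ndnf moved from 1.22 to 5.27 CPM at p27 and from 3.41 to 0.18 CPM at p77.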

How the results depend on the processing

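Under 8 other settings the genes higher in p27 lipid loading numbered 4893 to 5752 and those lower 4434 to 5051, beside 5385 and 4771, and with 1 compared library left out 4896 to 5076 and 4439 to 4570. At 2-fold or more the ranges were 2693 to 3565 and 1662 to 1941. Every count of genes in the 5 contrasts lay within 1.5 times of the reported one under these settings. Of 5803 values of named genes under the alternatives, 5718 kept direction and side of the threshold, 68 no longer passed, 17 newly passed and 0 changed sign. These changes touched 25 genes, and 40 of 1204 list counts moved by over 1.5 times. The cause was not tested. The share of calls that were higher ran from 51.8 to 56.3%. The median change over the genes tested ran from 0.019 without the filter to 0.139 with limma-trend, beside 0.08 as reported. The median shift from the reported log2 fold changes was at most 0.056 under any setting.

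Deviations of same-numbered lipid-loaded and proliferating libraries correlated at -0.009, 0.02 and -0.013. Such correlations, taken over all genes tested, cannot show an effect limited to some of them. Whether the replicate number had a shared effect, or whether cultures were paired, was not tested. With the replicate number as a block, 5311 genes were higher and 4733 lower, and lipid loading replicates 1 and 3 correlated best with another number. Of genes with a mean under 1 CPM 43.0% passed, against 83.1% at 100 CPM or more, and the part of depth in this was not tested.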

Other observations

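Other genes, in none of the lists above, changed in p27 lipid loading over proliferation. Atl1, whose product shapes the endoplasmic reticulum, stood at 13.3, 13.9 and 16.6 CPM in proliferation and at 0.666, 0.0417 and 0.347 CPM in lipid loading (-5.35 ± 0.55). The secreted protein gene ism2b went from 5.43 ± 0.473 to 0.168 ± 0.181 CPM (-4.97 ± 0.74). Emp3a, a small membrane protein gene, fell to no count, at least 38.5-fold lower. The membrane protein gene myadmb, at 1256 ± 84.5 CPM in proliferation, fell to 178 ± 17.8 CPM (-2.82 ± 0.13), and it was within 0.19 of serum reduction and serum starvation, where it did not pass (0.07 and 0.19). The peroxide-reducing enzyme prdx1 fell from 2667 ± 256 to 1039 ± 47.9 CPM (-1.36 ± 0.13).

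In the other direction, the death ligand gene tnfsf10 was at 0, 0 and 0.136 CPM in proliferation and at 4.87, 7.30 and 3.82 CPM in lipid loading, a count ratio of 121.6 (95% counting interval 41.3 to 592). The peptide hormone apln rose from 8.04 ± 1.55 to 19.1 ± 1.37 CPM (1.25 ± 0.25), and stood 5.40 ± 0.32 above serum reduction and 3.75 ± 0.28 above serum starvation. Genes named here and not by the rule were chosen after their values were seen.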
